A study of Mus musculus with 6 samples.

Results

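The genes of fatty acid oxidation and of the peroxisome were followed in whole mouse kidneys taken 28 days after ischaemia-reperfusion injury. The set has 43 members, listed by gene symbol, and all 43 were found once by gene name among the 35275 genes of the count table. By the organelle in which their products work, 20 members were classed as mitochondrial, 17 as peroxisomal and 6 as working in both or in another compartment. Poly-A RNA was sequenced from 3 kidneys of wild-type (WT) C57Bl/6 mice after 35 min of ischaemia, called severe injury by the labels, and from 3 kidneys of WT C57Bl/6 mice after 20 min, called mild injury. Ischaemia-reperfusion injury stops renal blood flow and then restores it, and both groups had been through it. Uninjured kidneys were not analysed here, so each value sets the longer ischaemia against the shorter. The labels do not say whether the 3 samples of a group came from separate mice, and p-values measure the spread between these samples only. The 35 min libraries are called 13, 14 and 15 and the 20 min libraries 7, 8 and 9, after the numbers in the table.

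Fatty acids are the main fuel of the proximal tubule, the kidney segment that takes back most of the filtered solutes. Long-chain fatty acids are bound to coenzyme A, pass into mitochondria through the carnitine shuttle, and are shortened there by a repeated spiral of dehydrogenation, hydration, a further oxidation and thiolysis. Peroxisomes shorten very-long-chain and branched fatty acids with their own oxidases, which make hydrogen peroxide that catalase breaks down, and hand the shortened chains on. Many genes of both pathways are targets of the nuclear receptor PPAR alpha, and loss of fatty acid oxidation is a known feature of fibrotic kidneys.

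Each library had 15240491 to 17730967 counts over genes, and 14883 genes passed the filter on low counts and were tested. The kidney label was checked against tubule markers: all 18 proximal tubule markers were tested, and their summed level lay between 16309 and 32530 CPM (read counts per 1e+06 of the TMM-scaled library size) in 35 min libraries and between 37672 and 39699.9 CPM in 20 min libraries. Library 14 stood apart from the other 35 min libraries, and 73% of all tested genes had a larger SD (of log2 CPM) among 35 min than among 20 min libraries. Fold changes of members are given with library 14 and, in the same paragraph, without it. Those of genes outside the set are given with all libraries only.

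All 43 members had enough counts for a test, with 141 to 81515 counts in a library. Every one of them had a log2 fold change below 0 for 35 min over 20 min kidneys, and none passed an adjusted p of 0.05 over all genes tested (edgeR quasi-likelihood test with Benjamini-Hochberg adjustment; lowest adjusted p 0.126). Of all tested genes 0.0134% passed, which is 1 gene on the lower side (0.00672%) and 1 on the higher (0.00672%), and 49.9% had a log2 fold change below 0. At an unadjusted p under 0.05 there were 10 of 43 members, all on the lower side, against 7.89% of all tested genes on that side and 23.7% on either. The median log2 fold change over members was -0.39, with a range of -0.68 to -0.11, against a median of 0.00019 over all tested genes. For 31 of the 43 members all 3 values of the 35 min kidneys lay below all 3 of the 20 min kidneys, which is 72.1%, and the same held for 16.1% of all tested genes, with 17.9% the other way round. In whole-kidney RNA, fewer cells of a type and less RNA per cell cannot be told apart.

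The lower values were graded within the 35 min group. Set against the 20 min mean, the mean log2 CPM of the 43 members stood at -0.13, -0.86 and -0.30 in 35 min libraries 13, 14 and 15, and at -0.024, 0.031 and -0.0068 in 20 min libraries 7, 8 and 9. Library 14 was the lowest of the 35 min libraries for 42 of 43 members (for 41.3% of all tested genes), and Hao2 was the exception. Library 14 lay below every 20 min library for 42 members (39.9% of all tested genes), library 15 for 41 (35.3%) and library 13 for 32 (28.6%). The members took up 1.82%, 1.23% and 1.71% of all counts in 35 min libraries 13, 14 and 15, and 1.98%, 1.96% and 1.96% in 20 min libraries 7, 8 and 9. Their median SD of log2 CPM was 0.366 among 35 min and 0.0632 among 20 min kidneys, and the SD was the larger in 35 min kidneys for 42 of 43.

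Whether members passed the test depended on which 35 min kidney was in it. Without library 13, which was the nearest to the 20 min kidneys, 22 members passed on the lower side (7.74% of all genes tested then, with 13.8% on the higher side), 9 of them mitochondrial, 10 peroxisomal and 3 of the remaining class. Without library 14, which was the farthest, 2 members passed (0.931% of all genes, with 2.4% higher), Acadm and Acsm1, and the median over members was -0.23, against -0.57 without library 13. Without library 14, 40 of the 43 log2 fold changes were nearer to 0 by over 1.5 times, and all 43 stayed below 0, between -0.41 and -0.038. DESeq2 and limma-voom called 0 members (lowest adjusted p 0.0574 and 0.163, both for Acot4). Unadjusted p was under 0.05 for 26 members by DESeq2 and for 18 by limma-voom. Over all genes, it was under 0.05 for 3518 by DESeq2, where 14305 had an adjusted p, and for 3463 of 14883 by limma-voom. DESeq2 called 0.993% of all genes lower and 7.19% higher, and limma-voom called 0.00672% each way. Limma-voom with sample quality weights, which gives libraries of larger spread less weight, called 34 members lower, with 15.7% of all tested genes lower and 18.2% higher.

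**Figure D1:**
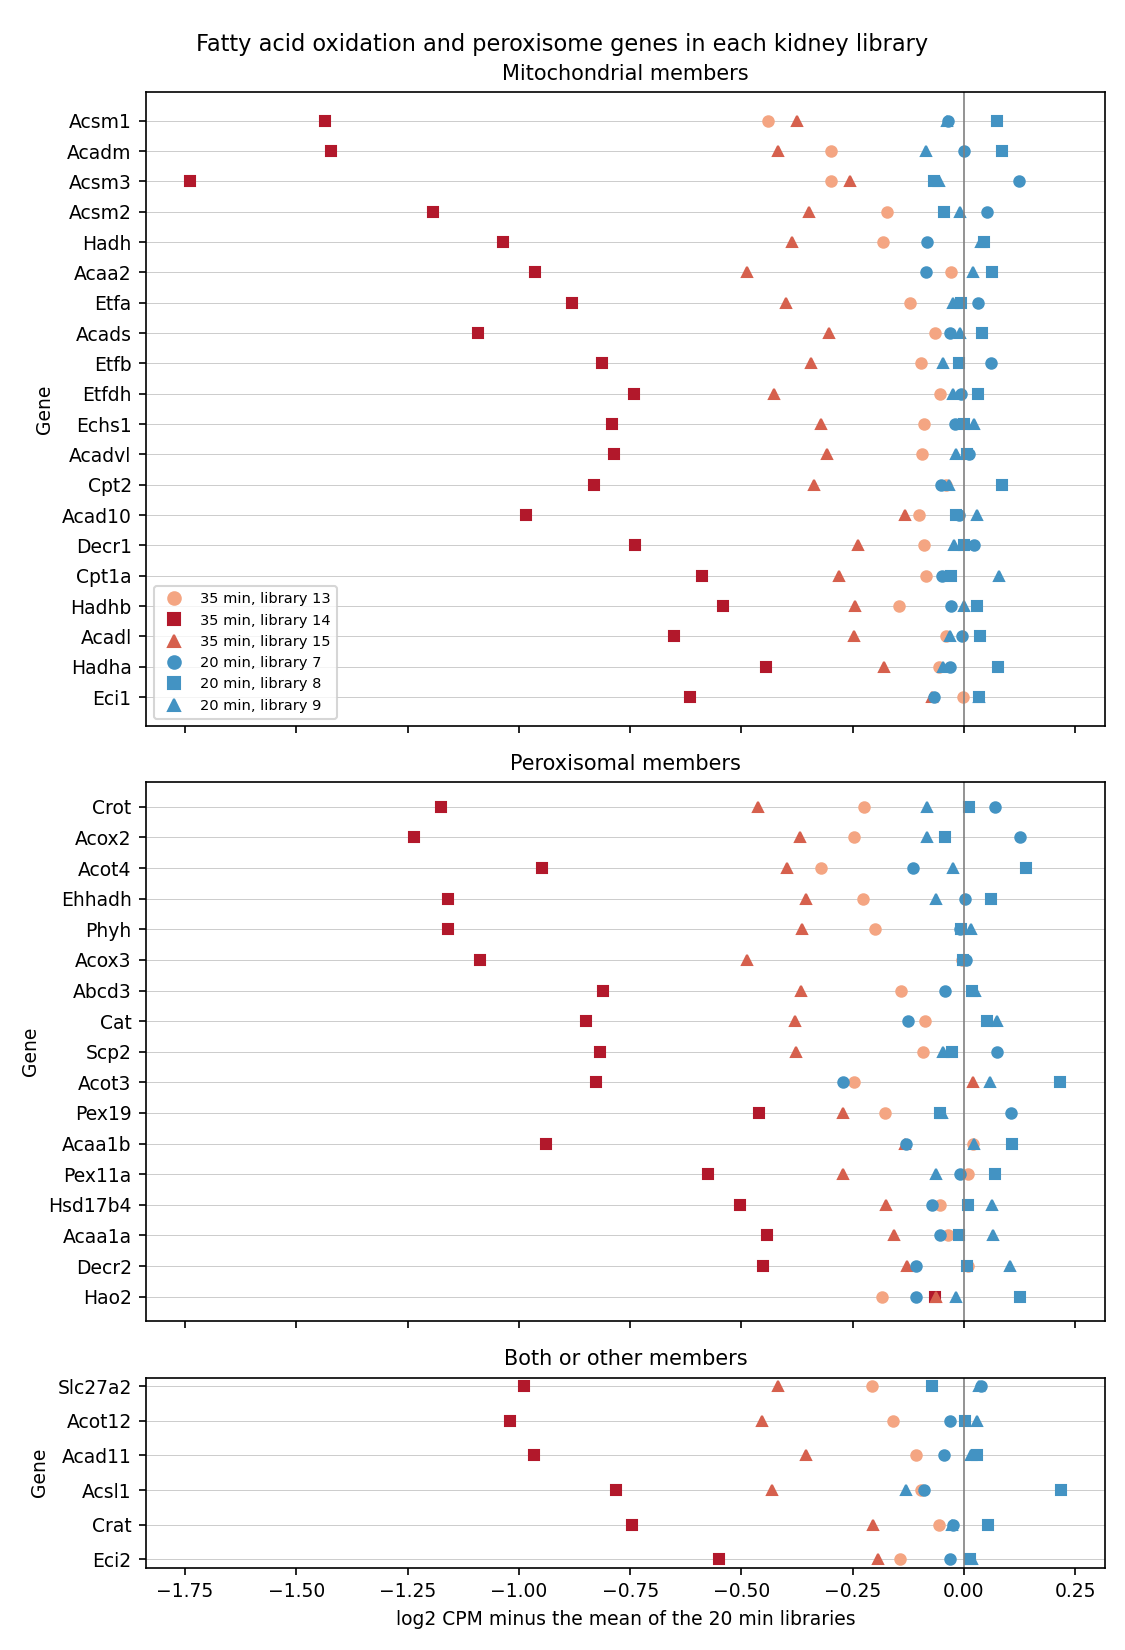
Log2 CPM of each member minus its mean in the 20 min libraries (x axis), by gene (y axis) and class, with 1 point per library. Library 14 (dark squares) is the leftmost point in every row but that of Hao2, and library 15 mostly follows. Library 13 is the rightmost of the 35 min libraries for 39 of 43 members, and lies left of every 20 min library for 32.

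The carnitine shuttle brings long-chain fatty acids into mitochondria. Cpt1a (chromosome 19 from 3323301 to 3385732 on the plus strand; mm10, as for all gene positions here) makes acylcarnitines at the outer membrane and is the main control point of the pathway. It had 502, 354 and 438 CPM in 35 min libraries 13, 14 and 15, against 515, 522 and 562 CPM in 20 min libraries 7, 8 and 9. The groups did not overlap, with library 14 the lowest and library 13 just under the 20 min range, and the log2 fold change was -0.31 ± 0.15 (SE). Values written with ± in brackets after a gene are log2 fold changes with their SE throughout. Cpt2, which turns acylcarnitines back into acyl-CoA inside, had 179, 104 and 146 CPM in the 35 min libraries, against 178, 196 and 180.3 CPM in the 20 min libraries. Library 13 lay within the 20 min range, so the groups overlapped, and the log2 fold change was -0.37 ± 0.18. The long-chain transferases thus stood at 80.9% and 77.5% of their 20 min mean. Without library 14 the log2 fold changes were -0.18 for Cpt1a and -0.18 for Cpt2.

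Acyl-CoA dehydrogenases take the first step of the spiral, each for its own chain lengths. Acadm, the medium-chain enzyme (chromosome 3 from 153922357 to 153944632 on the minus strand), had 845, 387 and 778 CPM in 35 min libraries 13, 14 and 15, against 1039.8, 1103 and 979 CPM in 20 min libraries 7, 8 and 9. All 35 min kidneys were below the 20 min range, and library 14 was far under the other 35 min kidneys. The log2 fold change was -0.64 ± 0.28 (edgeR adjusted p 0.214), and without library 14 it was -0.36 and passed (edgeR adjusted p 0.0494). Acadl, the long-chain enzyme, had 391, 256 and 339 CPM in the 35 min libraries, against 401, 412 and 393 CPM in the 20 min libraries. Here the gap between the groups was narrow, since library 13 was only just under the lowest 20 min kidney, and the log2 fold change was -0.29 ± 0.16. Within each library, the log2 ratio of Acadm to Acadl was 1.11, 0.60 and 1.20 in the 35 min libraries, and 1.37, 1.42 and 1.32 in the 20 min libraries. The medium-chain gene was thus lower relative to the long-chain gene in each 35 min kidney, with a difference of -0.40 between the group means of the ratio; this pair was chosen with its values known and was not tested. The other 3 dehydrogenases were Acadvl for very long chains (-0.37 ± 0.16), Acads for short chains (-0.42 ± 0.23) and Acad10, a further family member (-0.35 ± 0.21), with no overlap between the groups for any of them. Without library 14 the log2 fold changes were -0.14 for Acadl, -0.20 for Acadvl, -0.18 for Acads and -0.12 for Acad10.

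Electrons from these dehydrogenases pass to the electron transfer flavoprotein, a dimer of the products of Etfa and Etfb, and from it through the product of Etfdh to the respiratory chain. Etfa had 398, 235 and 328 CPM in the 35 min libraries, against 442, 431 and 426 CPM in the 20 min libraries. Etfdh had 228, 142 and 176 CPM in the 35 min libraries, against 236, 242 and 233 CPM in the 20 min libraries. In both genes the 35 min kidneys were all lower, in the order 13, 15, 14, with log2 fold changes of -0.43 ± 0.19 and -0.38 ± 0.17. Etfb had a log2 fold change of -0.39 ± 0.18, again with separate groups. The partners of the dimer kept nearly the same ratio: log2 Etfa over Etfb was 0.24 ± 0.023 in 35 min and 0.29 ± 0.027 in 20 min kidneys (mean ± SD, n = 3 each), with overlapping groups. Without library 14 the log2 fold changes were -0.25 for Etfa, -0.23 for Etfdh and -0.22 for Etfb. Without library 13, Etfdh had the lowest adjusted p of all members (edgeR, 0.0161, log2 fold change -0.57).

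The later steps of the mitochondrial spiral included members with some of the smallest differences of the set. Hadha and Hadhb encode the subunits of the trifunctional protein, which takes long chains through hydration, oxidation and thiolysis. Hadha had 249, 190.005 and 228 CPM in 35 min libraries 13, 14 and 15, against 253, 273 and 250.3 CPM in 20 min libraries 7, 8 and 9. Hadhb had 177, 135 and 165 CPM in the 35 min libraries, against 192, 199.8 and 196 CPM in the 20 min libraries. For both, the 35 min kidneys lay below the 20 min range, narrowly so for library 13 of Hadha, and the log2 fold changes were -0.22 ± 0.12 and -0.30 ± 0.12. The log2 ratio of Hadhb to Hadha was -0.48 ± 0.017 in 35 min and -0.40 ± 0.047 in 20 min kidneys (mean ± SD, n = 3 each), a difference of -0.084 that was not tested. Leaving out library 14 gave log2 fold changes of -0.12 for Hadha and -0.19 for Hadhb.

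The subunit genes lie head to head on chromosome 5, Hadha on the minus strand and Hadhb on the plus strand, with 273 bases between their annotated RefSeq starts. Their promoter windows, 250 bases before to 50 after each start, share 228 bases. The window of Hadhb (chr5:30155003-30155302, plus strand, GRCm38.p6, from RefSeq) is printed because the pair shares it. Capitals mark the 50 bases after the Hadhb start.
Hadhb: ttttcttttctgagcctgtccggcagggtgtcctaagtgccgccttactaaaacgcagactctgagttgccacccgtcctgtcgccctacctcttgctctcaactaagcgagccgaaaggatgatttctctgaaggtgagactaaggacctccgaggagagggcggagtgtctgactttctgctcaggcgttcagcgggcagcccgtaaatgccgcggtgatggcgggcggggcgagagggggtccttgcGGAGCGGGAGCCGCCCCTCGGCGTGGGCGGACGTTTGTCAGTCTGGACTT

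Among the other spiral enzymes, Hadh, the hydroxyacyl-CoA dehydrogenase for shorter chains, had 472, 261 and 409.9 CPM in the 35 min libraries, against 505, 553 and 550.3 CPM in the 20 min libraries. The groups did not overlap, library 13 being the nearest to the 20 min kidneys, and the log2 fold change was -0.49 ± 0.21. Acaa2, the mitochondrial thiolase, had 255, 134 and 186 CPM in the 35 min libraries, against 246, 272 and 264 CPM in the 20 min libraries. Library 13 was inside the 20 min range while libraries 14 and 15 were clearly under it, and the log2 fold change was -0.45 ± 0.21. Eci1, an isomerase needed for unsaturated chains, had 91.2, 59.6 and 86.9998 CPM in the 35 min libraries, against 87.3, 93.7 and 93.5 CPM in the 20 min libraries. It was the mitochondrial member nearest to no difference (-0.21 ± 0.15), with only library 14 well below the 20 min kidneys. The short-chain hydratase Echs1 (-0.37 ± 0.17) and the dienoyl-CoA reductase Decr1 (-0.33 ± 0.16) lay between these, both with separate groups. Leaving out library 14 gave log2 fold changes of -0.28 for Hadh, -0.24 for Acaa2, -0.038 for Eci1, -0.20 for Echs1 and -0.16 for Decr1.

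The medium-chain acyl-CoA synthetases, which activate medium-chain acids inside mitochondria, had a median log2 fold change of -0.62 over 3 genes. Acsm1 had 128, 64.4 and 134 CPM in 35 min libraries 13, 14 and 15, against 170.04, 184 and 169.6 CPM in 20 min libraries 7, 8 and 9. The groups did not overlap, and at 62.5% of the 20 min mean it was the lowest of all members (log2 fold change -0.68 ± 0.25, edgeR adjusted p 0.169). Without library 14 it stood at -0.41 and passed (edgeR adjusted p 0.0164). Acsm3 had 462, 170.1 and 476 CPM in the 35 min libraries, against 619, 542 and 547 CPM in the 20 min libraries. Library 14 alone was at -1.74 relative to the 20 min mean (log2 scale), the lowest value of any member in any library, while libraries 13 and 15 were at -0.30 and -0.26. Its log2 fold change of -0.62 ± 0.35 was -0.28 without library 14. Acsm2 had a log2 fold change of -0.51 ± 0.28, also with separate groups, and -0.26 without library 14. These genes are neighbours on chromosome 7 and close relatives, so reads may be split between them.

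In the peroxisome, chain shortening starts with acyl-CoA oxidases. Acox2, which acts on branched chains and bile acid precursors, had 98.5, 49.6 and 90.6 CPM in 35 min libraries 13, 14 and 15, against 128, 114 and 110.5 CPM in 20 min libraries 7, 8 and 9. The groups were apart, and the log2 fold change was -0.56 ± 0.23. Acox3, another branched-chain oxidase, stood at -0.46 ± 0.24, with library 13 only just below the 20 min kidneys. Ehhadh, the L-bifunctional enzyme that does the next pair of steps, had 801, 420.3 and 734 CPM in the 35 min libraries, against 939.6, 979 and 898 CPM in the 20 min libraries. Hsd17b4, the D-bifunctional enzyme that does the same steps on the other stereoisomer, had 266, 195 and 244 CPM in the 35 min libraries, against 262, 277 and 288 CPM in the 20 min libraries. Ehhadh was lower in each 35 min kidney (-0.53 ± 0.24), whereas Hsd17b4 overlapped at library 13 (-0.23 ± 0.13). Leaving out library 14 gave log2 fold changes of -0.31 for Acox2, -0.23 for Acox3, -0.29 for Ehhadh and -0.11 for Hsd17b4.

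The peroxisomal thiolases close the spiral. Acaa1b had 274, 141 and 246 CPM in the 35 min libraries, against 246, 290.4 and 274 CPM in the 20 min libraries. Acaa1a had 165, 125 and 152 CPM in the 35 min libraries, against 163, 168 and 177 CPM in the 20 min libraries. Both overlapped between the groups, and in Acaa1b library 14 alone was low (log2 fold changes -0.30 ± 0.23 and -0.20 ± 0.12; Acaa1b was at -0.057 without library 14). The log2 ratio of Acaa1b to Acaa1a was 0.73, 0.17 and 0.69 in the 35 min libraries and 0.59, 0.79 and 0.63 in the 20 min libraries, so library 14 stood out there too. These near-identical genes may share reads, and Acaa1b overlaps Dlec1 on the opposite strand, which had 7341 counts over all libraries against 23616 for Acaa1b. Scp2, a thiolase and sterol carrier for branched chains, stood at -0.40 ± 0.20 with separate groups, and overlaps Podn on the same strand. Decr2, a reductase for unsaturated chains, had 66.6, 48.3 and 60.5 CPM in the 35 min libraries, against 61.3, 66.4 and 71.03 CPM in the 20 min libraries. Its groups overlapped, and its log2 fold change was -0.18 ± 0.12. Leaving out library 14 gave log2 fold changes of -0.10 for Acaa1a, -0.23 for Scp2 and -0.060 for Decr2.

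Shortened chains leave the peroxisome as carnitine esters or free acids. Crot, the octanoyltransferase that makes the carnitine esters (chromosome 5 from 8966033 to 8997324 on the minus strand), had 482, 249 and 409 CPM in 35 min libraries 13, 14 and 15, against 592, 568 and 532 CPM in 20 min libraries 7, 8 and 9. With all libraries it had the lowest log2 fold change among peroxisomal members (-0.57 ± 0.23), with all 35 min kidneys below the 20 min range. Acot4, a thioesterase (chromosome 12 from 84038379 to 84044723 on the plus strand), had 27.9, 18.005 and 26.4 CPM in the 35 min libraries, against 32.2, 38.4 and 34.2 CPM in the 20 min libraries. All 35 min kidneys were lower, with a log2 fold change of -0.54 ± 0.16 and the lowest p of all members (edgeR, unadjusted 0.0112, adjusted 0.126). Its neighbour and close relative Acot3 was the least abundant member, at 11.9, 7.93 and 14.4 CPM in the 35 min libraries and 11.7, 16.5 and 14.8 CPM in the 20 min libraries, with overlapping groups (-0.33 ± 0.23). An opposite-strand gene that overlaps both had 509 counts over all libraries, against 1240 for Acot3 and 2836 for Acot4, and reads of the strands cannot be told apart where the counting did not use strand. With library 14 left out the log2 fold changes were -0.34 for Crot, -0.37 for Acot4 and -0.13 for Acot3.

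Genes for peroxisome membrane and assembly had log2 fold changes from -0.41 to -0.26. Pex19, which inserts membrane proteins, had 108, 88.7 and 101 CPM in the 35 min libraries, against 131, 118 and 118 CPM in the 20 min libraries. The groups were separate and the spread small (log2 fold change -0.30 ± 0.10). Pex11a, which promotes peroxisome division and is a known PPAR alpha target, had 67.6, 45.01 and 55.6 CPM in the 35 min libraries, against 66.8, 70.5 and 64.3 CPM in the 20 min libraries. Library 13 lay within the 20 min range (-0.26 ± 0.14). Abcd3, the membrane transporter that carries acyl-CoA into the organelle, had 411, 258 and 352 CPM in the 35 min libraries, against 439.8, 459 and 461 CPM in the 20 min libraries. Its 35 min kidneys were all lower (-0.41 ± 0.17). With library 14 left out the log2 fold changes were -0.23 for Pex19, -0.13 for Pex11a and -0.25 for Abcd3.

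Cat, catalase, had 955, 564 and 780.2 CPM in 35 min libraries 13, 14 and 15, against 930.4, 1052 and 1067 CPM in 20 min libraries 7, 8 and 9. Libraries 14 and 15 were below the 20 min range and library 13 within it, and the log2 fold change was -0.41 ± 0.21. Phyh, which starts alpha-oxidation of phytanic acid, stood at -0.52 ± 0.23 with separate groups. Hao2, a peroxisomal hydroxyacid oxidase, had 198, 216 and 216 CPM in the 35 min libraries, against 209, 246 and 223 CPM in the 20 min libraries. With all libraries it had the smallest difference of all 43 members (-0.11 ± 0.10), its groups overlapped, and it was the sole member in which library 14 was not the lowest 35 min kidney. With library totals in place of TMM as the scaling, Hao2 turned to 0.066 while the other 42 members stayed below 0. That scaling moved the median of all tested genes to 0.17, and all 43 members lay below this median. With library 14 left out the log2 fold changes were -0.23 for Cat, -0.28 for Phyh and -0.13 for Hao2.

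The members of the remaining class work in both organelles or outside them. Slc27a2, a transporter and very-long-chain acyl-CoA synthetase (chromosome 2 from 126552407 to 126588243 on the plus strand), had 2378, 1381 and 2052 CPM in the 35 min libraries, against 2817, 2607 and 2809 CPM in the 20 min libraries. Acsl1, the long-chain synthetase that supplies both organelles, had 302, 188 and 239 CPM in the 35 min libraries, against 303, 375 and 295 CPM in the 20 min libraries. Acot12, a cytosolic acetyl-CoA thioesterase, had 137, 75.5 and 112 CPM in the 35 min libraries, against 149.7, 153 and 156 CPM in the 20 min libraries. Of these 3, Slc27a2 and Acot12 had separate groups (-0.50 ± 0.23 and -0.50 ± 0.19), and Acsl1 overlapped at library 13 (-0.42 ± 0.19). Crat, the carnitine acetyltransferase of both organelles, had 138, 85.4 and 124 CPM in the 35 min libraries, against 141, 149 and 140.5 CPM in the 20 min libraries. Eci2, an isomerase found in both, had 69.96, 52.7 and 67.6 CPM in the 35 min libraries, against 75.6, 77.97 and 78.3 CPM in the 20 min libraries. Acad11, a dehydrogenase of longer chains, had 131, 72.3 and 110.5 CPM in the 35 min libraries, against 137, 144 and 143 CPM in the 20 min libraries. These had separate groups as well, with log2 fold changes of -0.31 ± 0.16, -0.29 ± 0.11 and -0.43 ± 0.19. With library 14 left out the log2 fold changes were -0.31 for Slc27a2, -0.26 for Acsl1, -0.30 for Acot12, -0.13 for Crat, -0.17 for Eci2 and -0.23 for Acad11.

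Mitochondrial and peroxisomal members differed from the 20 min kidneys by about the same amount. The median log2 fold change was -0.40 over 17 peroxisomal members (range -0.57 to -0.11) and -0.38 over 20 mitochondrial members (range -0.68 to -0.21), a difference of -0.023. With means in place of medians it was -0.37 and -0.41, so the sign of the difference turned. Without library 14 the medians were -0.23 over peroxisomal and -0.20 over mitochondrial members. The peroxisomal score, the mean over members of log2 CPM minus the 20 min mean, was -0.13, -0.79 and -0.28 in 35 min libraries 13, 14 and 15 and -0.039, 0.039 and -0.00047 in 20 min libraries 7, 8 and 9. The mitochondrial score was -0.13, -0.91 and -0.31 in those 35 min libraries and -0.010, 0.022 and -0.011 in those 20 min libraries. Peroxisomal minus mitochondrial came to -0.0045, 0.12 and 0.027 in the 35 min libraries and to -0.029, 0.018 and 0.011 in the 20 min libraries, so the groups overlapped and library 14 had the largest value. Groups were separate for 9 of 17 peroxisomal and 17 of 20 mitochondrial members, against 16.1% of all tested genes, and this difference in counts was not tested.

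**Figure D2:**
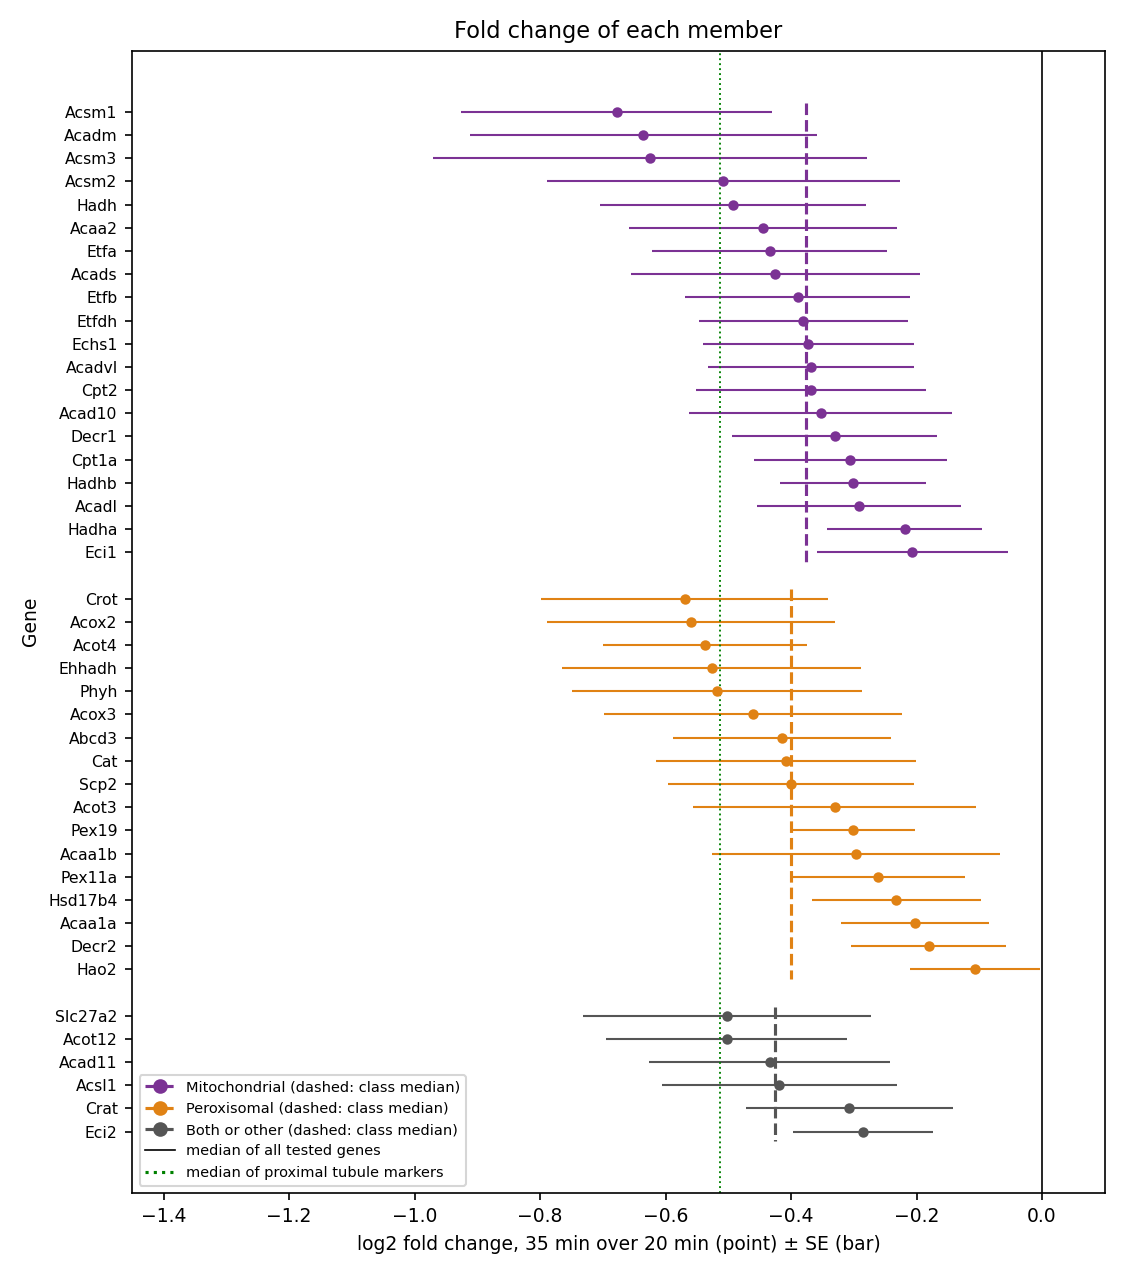
Log2 fold change of each member for 35 min over 20 min kidneys (x axis, point) with its SE (bar), by gene (y axis) and class; dashed lines are class medians. All 43 points lie left of the median of all tested genes, most class members lie right of the median of the proximal tubule markers at -0.51, and the class medians of -0.38, -0.40 and -0.43 lie close together.

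Levels were compared between genes as RPKM, which is CPM divided by the gene length in kilobases, with the length given in the table. The most abundant member was Slc27a2, at 664 ± 174 in 35 min and 940.5 ± 40.6 in 20 min kidneys (mean ± SD, n = 3 each). Acsm2 followed at 541 ± 181 in 35 min and 769.8 ± 26.3 in 20 min kidneys, and Acadm at 327 ± 121 in 35 min and 508 ± 30.3 in 20 min kidneys. The most abundant peroxisomal member was Cat at 293 ± 74.98 in 35 min and 389 ± 28.7 in 20 min kidneys. At the low end were Acot3, at 4.4003 ± 1.26 in 35 min and 5.52 ± 0.928 in 20 min kidneys, and Acot4, at 10.4 ± 2.29 in 35 min and 15.03 ± 1.36 in 20 min kidneys. In 20 min kidneys the neighbours Cat and Etfb (389 ± 28.7 and 409 ± 15.7 RPKM) and Ehhadh and Etfa (311 ± 13.5 and 311 ± 6.13 RPKM) did not differ beyond their SD. Over the 43 genes, Pearson's r between log2 RPKM in 20 min kidneys and the log2 fold change was -0.35 and Spearman's rho -0.37. This is across genes of the same 6 libraries, which are not independent, and the 20 min values enter both axes.

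**Figure D3:**
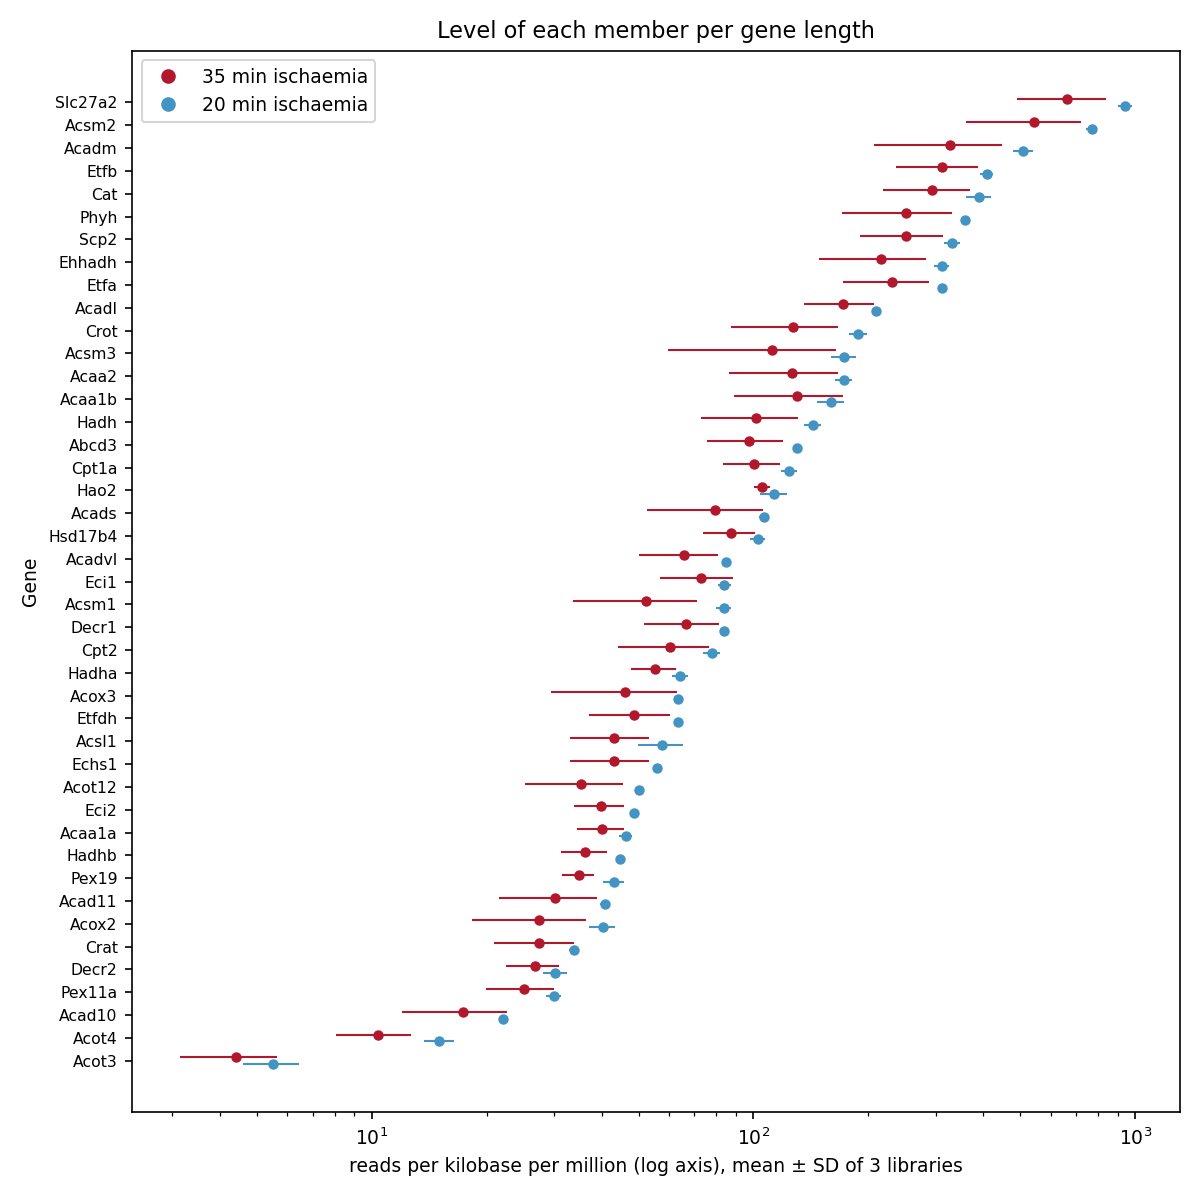
Level of each member in RPKM (x axis, log scale) in 35 min and 20 min kidneys, as mean ± SD of 3 libraries, with genes ordered down the y axis by the 20 min level. The 35 min mean lies left of the 20 min mean in every row, and its bars are the longer in nearly all rows, as in Slc27a2 at 664 ± 174 in 35 min and 940.5 ± 40.6 in 20 min kidneys.

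PPAR alpha and its partner RXR bind a direct repeat of AGGTCA with a single base between the copies. RefSeq promoter windows of 300 bases were found for 38 of the 43 members. Neither AGGTCA followed by any base and AGGTCA, nor the looser repeat of AGGNCA spaced in the same way, was present on either strand in any of the 38 windows, and they were present in 0.0481% and 0.451% of 27025 genes with a window. At such rates a match among 38 windows is unlikely for any genes, so this result does not set the members apart. A lone AGGTCA on either strand, searched after that result was seen, was present for 12 of 38 members, 31.6%, against 18.1% of all genes. By class it was 5 of 15 peroxisomal and 5 of 18 mitochondrial members. Over all 38 members with a window, with or without a match, the median GC content was 59.5%, against 52.8% over all genes. A match describes letters and not a bound site, and sites outside the windows were not searched. The windows of Acadm (chr3:153944594-153944893, minus strand), Cat (chr2:103485104-103485403, minus strand) and Acot4 (chr12:84038129-84038428, plus strand), GRCm38.p6, are printed as those of the mitochondrial spiral enzyme with the lowest log2 fold change, the most abundant peroxisomal member and the member with the lowest p. Capitals mark the AGGTCA match, which reads TGACCT where it lies on the opposite strand.
Acadm: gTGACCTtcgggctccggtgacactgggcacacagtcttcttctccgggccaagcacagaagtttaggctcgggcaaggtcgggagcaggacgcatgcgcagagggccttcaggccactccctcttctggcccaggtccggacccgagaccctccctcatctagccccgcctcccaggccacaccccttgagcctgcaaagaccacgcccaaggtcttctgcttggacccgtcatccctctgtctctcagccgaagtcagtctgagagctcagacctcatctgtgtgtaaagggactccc
Cat: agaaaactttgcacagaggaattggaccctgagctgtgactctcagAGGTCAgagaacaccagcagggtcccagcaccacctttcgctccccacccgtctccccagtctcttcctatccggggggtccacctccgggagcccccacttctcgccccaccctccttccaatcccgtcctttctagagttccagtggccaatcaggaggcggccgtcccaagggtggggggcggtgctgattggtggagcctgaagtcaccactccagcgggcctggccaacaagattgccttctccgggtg
Acot4: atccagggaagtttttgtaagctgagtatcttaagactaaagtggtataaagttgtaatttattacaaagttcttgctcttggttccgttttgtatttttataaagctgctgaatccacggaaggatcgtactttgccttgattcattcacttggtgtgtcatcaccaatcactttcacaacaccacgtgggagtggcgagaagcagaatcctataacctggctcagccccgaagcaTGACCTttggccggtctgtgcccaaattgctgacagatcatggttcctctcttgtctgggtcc

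Regulators of the pathway were looked at next, from a list of 19 genes. Of these 0 passed by edgeR (6 at an unadjusted p under 0.05; DESeq2 called 0, limma-voom 0 and limma-voom with quality weights 10), 15 had a log2 fold change below 0, and the median was -0.22. Ppara, which encodes PPAR alpha, had 40.7, 23.6 and 29.8 CPM in 35 min libraries 13, 14 and 15, against 40.3, 41.7 and 43.7 CPM in 20 min libraries 7, 8 and 9. Library 13 was within the 20 min range and the other 35 min kidneys under it (-0.42 ± 0.18). Its coactivator gene Ppargc1a had 68.5, 51.8 and 59.6 CPM in the 35 min libraries, against 67.5, 65.99 and 62.04 CPM in the 20 min libraries, with overlapping groups (-0.12 ± 0.11). Hnf4a, a nuclear receptor of proximal tubule identity, had 816, 542 and 715 CPM in the 35 min libraries, against 943, 948 and 909 CPM in the 20 min libraries, with all 35 min kidneys lower (-0.43 ± 0.18). The energy metabolism receptor gene Esrra (-0.46 ± 0.15), the RXR gene Rxra (-0.26 ± 0.12) and the mitochondrial deacetylase gene Sirt3 (-0.47 ± 0.16) also had separate groups. Library 14 was again the lowest. Relative to the 20 min mean on the log2 scale, 35 min libraries 13, 14 and 15 stood at -0.25, -0.85 and -0.33 for Esrra. They stood at -0.058, -0.52 and -0.24 for Rxra and at -0.17, -0.88 and -0.45 for Sirt3. The list's lowest p-values belonged to Sirt3, Esrra, Rxrb (-0.22 ± 0.077) and Lpin1 (-0.29 ± 0.11), with edgeR adjusted p from 0.149 to 0.178. Beside this list and those below, 23.7% of all tested genes had an unadjusted p under 0.05 by edgeR. DESeq2 called 0.993% of all genes lower and 7.19% higher, and limma-voom 0.00672% each way. With quality weights it called 15.7% lower and 18.2% higher.

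Known PPAR alpha targets outside the set were counted in the same way. Of 20 listed genes 15 were tested, and 0 passed by edgeR, with 1 at an unadjusted p under 0.05. DESeq2 and limma-voom called 0, and limma-voom with quality weights called 2 lower and 1 higher. Of the 15, 12 stood below 0 and 3 above, and the median was -0.24. For 0 of the 15 all 35 min kidneys were below the 20 min range, and for 2 all were above it, against 16.1% and 17.9% of all tested genes. Those 2 were Angptl4, an inhibitor of lipoprotein lipase, with 92.005, 63.2 and 67.9 CPM in the 35 min libraries, against 47.6, 61.3 and 62.9 CPM in the 20 min libraries (0.38 ± 0.16), and Ucp2, a mitochondrial carrier, at 0.33 ± 0.10. Cyp4a10, a fatty acid hydroxylase, had 376, 203 and 262 CPM in the 35 min libraries, against 325, 411 and 368 CPM in the 20 min libraries (-0.39 ± 0.22), with library 13 inside the 20 min range. Cyp4a14 (-0.095 ± 0.34), Pdk4, which restrains glucose oxidation (-0.14 ± 0.17), and the lipid droplet gene Plin2 (0.0063 ± 0.089) had overlapping groups. Vnn1, a pantetheinase, stood at -0.39 ± 0.17. The liver-type fatty acid binding protein gene Fabp1 had 23, 9 and 10 counts in the 35 min libraries and 6, 6 and 7 in the 20 min libraries and was not tested.

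Other genes of the same organelles also had medians below 0. The mitochondrial list was close to the mitochondrial members (median -0.38). The peroxisomal list was nearer to 0 than the peroxisomal members (median -0.40). Among 22 tested of 23 further mitochondrial fatty acid enzymes, 0 passed by edgeR, and 13 had an unadjusted p under 0.05 (23.7% of all tested genes). DESeq2 called 1 lower and 1 higher (0.993% and 7.19% of all genes), and limma-voom called 0. Limma-voom with quality weights called 17 lower and 1 higher, against 15.7% and 18.2% of all tested genes. Of the 22 enzymes, 20 stood below 0, and the median was -0.39. Cpt1c, a brain-type relative of Cpt1a of low level, had 4.94, 8.496 and 5.78 CPM in the 35 min libraries, against 3.93, 3.23 and 2.68 CPM in the 20 min libraries, higher in each 35 min kidney (0.97 ± 0.26). Cpt1b, the muscle-type form, stood at -0.80 ± 0.28 with under 2 CPM in every library, the carnitine importer gene Slc22a5 at -0.47 ± 0.15, Acad12 at -0.59 ± 0.19 and the carnitine-acylcarnitine carrier gene Slc25a20 at -0.21 ± 0.11. Among 34 tested of 39 further peroxisomal enzymes and transporters, 0 passed by edgeR, and 10 had an unadjusted p under 0.05. DESeq2 called 1 lower, limma-voom 0, and limma-voom with quality weights 24 lower and 1 higher. Of the 34 genes, 29 stood below 0, and the median was -0.30. The coenzyme A diphosphatase gene Nudt7 (-0.44 ± 0.12), Hsdl2 (-0.29 ± 0.093), the peroxisomal protease gene Lonp2 (-0.33 ± 0.12) and the D-aspartate oxidase gene Ddo (-0.38 ± 0.14) had the lowest p-values of that list.

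Peroxins build the peroxisome and import its proteins. All 15 listed were tested, 0 passed by edgeR (7 at an unadjusted p under 0.05; DESeq2 called 1, limma-voom 0 and limma-voom with quality weights 7), all 15 stood below 0, and the median was -0.28. All 35 min kidneys were below the 20 min range for 10 of 15, against 16.1% of all tested genes. Pex5, the receptor that imports most matrix enzymes, had 103, 75.6 and 94.7 CPM in the 35 min libraries, against 109, 112 and 112 CPM in the 20 min libraries (-0.28 ± 0.12). Pex2, a ubiquitin ligase of the import machinery, had 59.5, 49.2 and 54.97 CPM in the 35 min libraries, against 69.3, 69.3 and 68.8 CPM in the 20 min libraries (-0.34 ± 0.085, edgeR adjusted p 0.0995). Pex7, the receptor of the thiolases and of Phyh, stood at -0.33 ± 0.13. The list also holds Pex5l, a Pex5-like gene whose part in peroxisomes was not examined here. Pex5l had the lowest log2 fold change of the list, -0.97 ± 0.35, with under 3 CPM in every library.

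Of 13 genes of uptake and activation 10 were tested, and 0 passed by edgeR, with 4 at an unadjusted p under 0.05. DESeq2 and limma-voom called 0, and limma-voom with quality weights called 2 lower and 1 higher. Of the 10 genes, 5 stood below 0 and 5 above, and the median was -0.028. Cd36, a fatty acid translocase, had 391, 171 and 321 CPM in 35 min libraries 13, 14 and 15, against 473, 427 and 424 CPM in 20 min libraries 7, 8 and 9, lower in each 35 min kidney (-0.58 ± 0.27). On the other side were Acsl4 (0.39 ± 0.14), a synthetase for arachidonic acid, the binding protein gene Fabp5 (0.51 ± 0.18) and Slc27a3 (0.50 ± 0.17), each higher in every 35 min kidney, and Acsl3 stood at -0.25 ± 0.11. Of 16 synthesis genes 16 were tested, 0 passed by edgeR (0 at an unadjusted p under 0.05; DESeq2 called 0, limma-voom 0 and limma-voom with quality weights 4), 11 stood below 0, and the median was -0.12. Dgat2, which makes triglycerides, stood at -0.46 ± 0.20, the transcription factor gene Mlxipl at -0.39 ± 0.18, the desaturase gene Fads2 at -0.34 ± 0.16 and the fatty acid synthase gene Fasn at -0.25 ± 0.12, all with separate groups.

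Markers of the proximal tubule, where these pathways are most active, stood lower in the same libraries as the members. All 18 stood below 0, with a median of -0.51, and 0 passed by edgeR (6 at an unadjusted p under 0.05; DESeq2 called 3, limma-voom 0 and limma-voom with quality weights 14). By library, their mean score was -0.23, -1.15 and -0.36 in 35 min libraries 13, 14 and 15 and -0.054, 0.023 and 0.031 in 20 min libraries 7, 8 and 9. The phosphate transporter gene Slc34a1 had 6317, 3193 and 5788 CPM in the 35 min libraries, against 6772, 7425 and 7841 CPM in the 20 min libraries (-0.53 ± 0.29), the glucose transporter gene Slc5a2 stood at -0.60 ± 0.21 and the endocytic receptor gene Lrp2 at -0.54 ± 0.21. The score of the members minus that of the proximal tubule markers was 0.10, 0.30 and 0.063 in the 35 min libraries and 0.030, 0.0081 and -0.038 in the 20 min libraries. This difference was higher in each 35 min kidney than in any 20 min kidney, and its cause was not tested. Loop of Henle markers had a median of -0.45 over 7 genes, distal tubule markers one of -0.40 over 4, and collecting duct markers one of -0.23 over 7.

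Markers of fibroblasts, macrophages and injured tubule had their highest scores in library 14. All 6 fibroblast markers stood higher in each 35 min kidney (median log2 fold change 1.76; 0 passed by edgeR, 6 at an unadjusted p under 0.05, 6 called by DESeq2, 0 by limma-voom and 6 with quality weights), with a summed level of 1091, 3662 and 1886 CPM in the 35 min libraries and 516 to 646 CPM in the 20 min libraries. All 6 macrophage markers tested did so too (median 1.21; 0 passed by edgeR, 6 at an unadjusted p under 0.05, 6 called by DESeq2, 0 by limma-voom and 6 with quality weights), with sums of 450.4, 862 and 541 CPM, against 234 to 274 CPM. Of all tested genes, 17.9% stood higher in each 35 min kidney, and 23.7% had an unadjusted p under 0.05 by edgeR, in either direction. DESeq2 called 7.19% of all genes higher, and limma-voom with quality weights 18.2%. The fibroblast collagen gene Col1a1 stood at 2.06 ± 0.38 and the macrophage gene Cd68 at 1.27 ± 0.17. The 5 markers of injured tubule summed to 173, 786 and 388 CPM, against 110.01 to 167 CPM. Of these, 0 passed by edgeR, 5 had an unadjusted p under 0.05, and DESeq2 called 4, limma-voom 0 and quality weights 5. All 35 min kidneys were above the 20 min range for only 2 of the 5. Their mean score was 0.41 in library 13 and 0.37 in 20 min library 9. The kidney injury gene Havcr1 had 69.4, 372 and 177 CPM in the 35 min libraries, against 47.1, 43.8 and 66.2 CPM in the 20 min libraries. Endothelial markers had a median of 0.12 and podocyte markers one of -0.12, over 5 genes each. The part that the cell composition of the kidneys has in the values of the members was not tested.

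**Figure D4:**
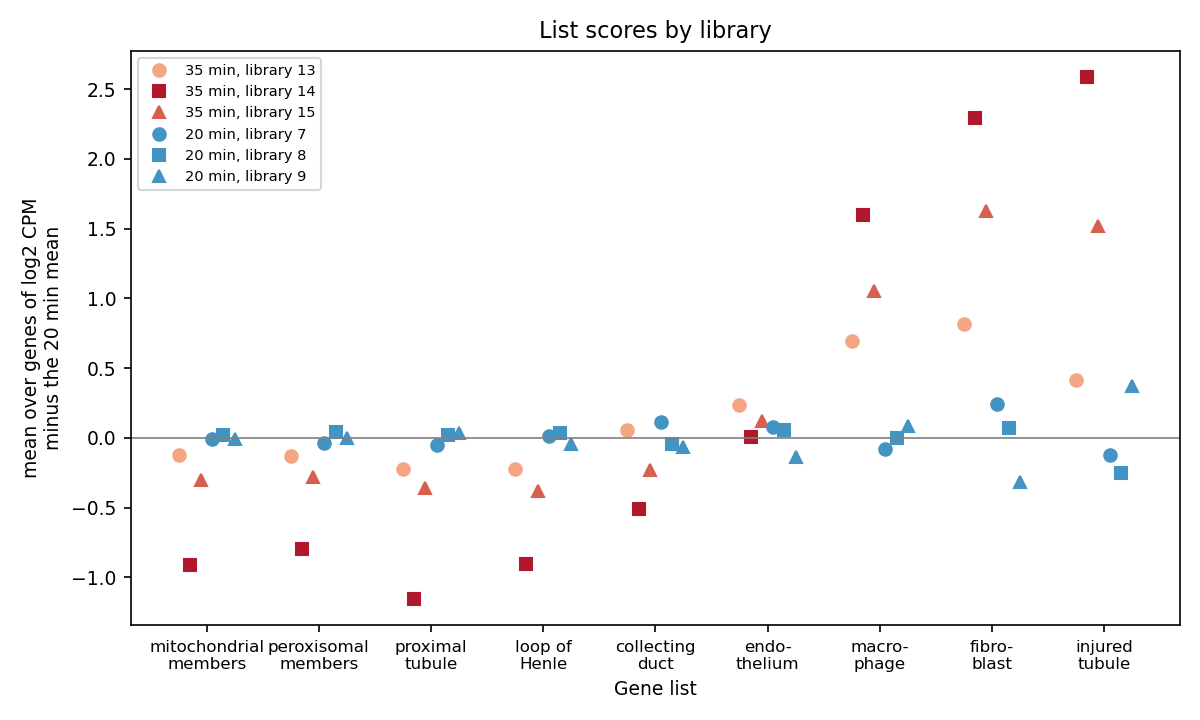
Mean over each gene list of log2 CPM minus the 20 min mean (y axis), by list (x axis) and library. Library 14 has the lowest score of mitochondrial and peroxisomal members and of proximal tubule markers (-0.91, -0.79 and -1.15) and the highest of macrophage, fibroblast and injured tubule markers (1.60, 2.29 and 2.59).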

How the data were processed

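Whole-kidney poly-A RNA was measured in 6 samples, 3 after 35 min and 3 after 20 min of ischaemia. The labels' protocols give TRIzol extraction, DNase treatment and the NEBNext Ultra RNA kit. Bowtie2 2.2.3, TopHat2 2.0.12, HTSeq 0.6.1 and mm10 are named by the submitters' processing notes. Their roles, the strand setting, the counting mode and the annotation were not given in the sources. The deposited counts are raw reads per gene, as the authors made them, beside a gene length in bases.

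Columns were used as replicates of the group in their names, since their numbers match no sample title, and 0 columns of sample values were left out. Libraries of a group differed by 15.2 to 75.5 times sampling noise among 35 min and 3.86 to 5.66 times among 20 min libraries (chi-square over its degrees of freedom), so each was counted as 1 sample. EdgeR 4.0.16 served for the filter on low counts (filterByExpr), for TMM scaling (factors 0.974, 1.17 and 1.04 in libraries 13, 14 and 15 and 0.943 to 0.945 in the 20 min libraries) and for the robust quasi-likelihood test, run in R 4.3.3 with Benjamini-Hochberg adjustment over 14883 genes. SE is the log2 fold change over the root of F. Scores use log2 CPM with a prior count of 2. DESeq2 1.42.0 and limma 3.58.1 served as alternatives. The steps were tested on simulated data with the same spread in all libraries. That test does not cover the larger spread among the 35 min libraries.

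The members, classes, lists and naming rule were chosen with earlier results of these data known. The naming rule gives every library's value for the up to 5 members of each class with the lowest p, the up to 3 with the highest and the lowest log2 fold change, and set key steps. Of each other pathway list it names the up to 4 genes with the lowest p and set genes. Protein sequences were not analysed here, and a few genes that the rule names are not reported here. Of the members, 14 overlap a gene on the opposite strand, and without the strand setting their reads cannot be told apart.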

Additional observations from a re-analysis of the deposited data

How the results depend on the processing

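With edgeR and TMM, 2 genes passed the threshold. The count was 1 with library totals as scaling, 146 with no filter on low counts, 1171 with DESeq2 and 5041 with limma-voom and sample quality weights, and it ranged from 0 to 3269 when 1 library was left out. It was 3269 without library 13, 501 without library 14, 1 without library 15, and 0 by edgeR without each of libraries 7, 8 and 9, where 2196, 2137 and 2345 genes had an unadjusted p under 0.05. Of the genes with an unadjusted p under 0.05, 66.7% were higher in 35 min kidneys with TMM, 90.8% with library totals and 52.2% with quality weights. The count of members was 0 with edgeR and in 7 of the 8 other settings of scaling, filter and tool, 34 with sample quality weights, and 0 to 22 with 1 library left out (22 without library 13, 2 without library 14). Hao2 turned to 0.066 with library totals; no other member changed sign in any setting tried. The mitochondrial median lay between -0.40 and -0.23 over the settings that keep all libraries and between -0.56 and -0.20 with 1 library left out. The peroxisomal median lay between -0.43 and -0.25 and between -0.57 and -0.23 in the same way. Their difference ranged from -0.052 to 0.036 over all settings, with other class definitions and means in place of medians included. The mean score of the 35 min kidneys was -0.40 for peroxisomal and -0.45 for mitochondrial members with prior counts of 2 and of 0.5 alike, to 2 decimals. The causes were not tested. The median SD of members was 0.366 among 35 min and 0.0632 among 20 min kidneys on the log2 scale, so with 3 kidneys a group most differences were near the spread of the 35 min kidneys. No paired analysis was possible because the groups share no replicate number.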

Other observations

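Adipocyte markers were near 0 in most libraries. Adipoq had 1, 1 and 11 counts in 35 min libraries 13, 14 and 15 and 14, 0 and 0 in 20 min libraries 7, 8 and 9. Cfd, an adipocyte protease gene, had 1, 3 and 39 counts in those 35 min libraries and 119, 0 and 0 in those 20 min libraries. Of the 9 adipocyte markers listed, 2 had enough counts for a test, the carbonic anhydrase gene Car3 (-0.84 ± 0.27) and Fabp4 (0.022 ± 0.18), both of which other cells also express. The male-specific gene Ddx3y had 877 to 1104 counts in the 35 min and 757 to 961 in the 20 min libraries, and Xist had 2 to 5 in the 35 min and 1 to 3 in the 20 min libraries.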
